A study of Homo sapiens with 12 samples.

Results

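The AP-1 and immediate early genes followed here were FOS, FOSB, FOSL1, FOSL2, JUN, JUNB, JUND, ATF3, EGR1 and IER3. They were found by gene name in the deposited gene tables, and all 10 were present among the 60504 gene identifiers listed in each table. The 12 RNA libraries came from T24, a cell line established from a human bladder carcinoma. In the knockout comparison, 2 libraries labelled U11 knockout stood against 2 libraries of untreated T24 cells. In the overexpression comparison, 6 libraries labelled U11 overexpression stood against 2 other libraries of untreated T24 cells. The study made the knockout with CRISPR/Cas9 and guides against U11 and kept the monoclonal line that its own PCR ranked highest, so the libraries labelled U11 knockout stand for selected clonal cells. It made the overexpressing cells by transfection of a pcDNA-U11 plasmid and monoclonal selection. Among the overexpression libraries, 2 each carried line label 79, 86 or 87, whose meaning is not given in the sources used here. The question addressed was how these genes differed between each U11 label and its controls, and between the line labels.

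AP-1 is a transcription factor made of a dimer of a JUN family protein (JUN, JUNB or JUND) with another JUN protein or a FOS family protein (FOS, FOSB, FOSL1 or FOSL2). ATF3 is a related leucine zipper protein of the stress response that can pair with JUN proteins, EGR1 is a zinc finger transcription factor, and IER3 is a small protein linked to cell survival. Most of these genes are immediate early genes, which growth factors and stress switch on without new protein synthesis, through kinases that act on factors bound near their starts. FOSL1 and FOSL2 are induced later and last longer, and FOSL1 is known for high levels in invasive carcinoma cells. U11 is the small nuclear RNA that recognises the start of U12-type introns in the minor spliceosome.

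The promoters of JUNB, EGR1 and ATF3 are shown because these genes had an adjusted P under 0.05 in the knockout comparison. Each sequence is from RefSeq (GRCh38.p14), runs 5′ to 3′ on the plus strand, and covers 250 bases before and 50 bases after a gene start. Capitals mark a CArG box (the site of serum response factor), an AP-1 site (TGACTCA), a CRE (TGACGTCA), an EGR site (GCGTGGGCG) or a TATA box (TATAAA), each searched on both strands. The windows were chr19:12791236-12791535 for JUNB, chr5:138465229-138465528 for EGR1, and chr1:212565157-212565456 and chr1:212614768-212615067 for the first and the second start of ATF3.
JUNB: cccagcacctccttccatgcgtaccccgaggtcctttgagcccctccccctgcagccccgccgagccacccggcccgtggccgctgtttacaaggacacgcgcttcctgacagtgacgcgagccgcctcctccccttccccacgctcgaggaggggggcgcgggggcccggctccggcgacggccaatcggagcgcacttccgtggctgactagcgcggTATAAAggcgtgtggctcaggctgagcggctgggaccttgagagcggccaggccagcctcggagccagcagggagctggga
EGR1: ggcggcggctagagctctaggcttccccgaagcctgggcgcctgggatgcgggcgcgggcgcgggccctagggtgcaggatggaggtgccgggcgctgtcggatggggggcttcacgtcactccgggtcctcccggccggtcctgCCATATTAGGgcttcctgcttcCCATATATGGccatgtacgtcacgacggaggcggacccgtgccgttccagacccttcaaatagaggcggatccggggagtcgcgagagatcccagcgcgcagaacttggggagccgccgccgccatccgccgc
ATF3, first start: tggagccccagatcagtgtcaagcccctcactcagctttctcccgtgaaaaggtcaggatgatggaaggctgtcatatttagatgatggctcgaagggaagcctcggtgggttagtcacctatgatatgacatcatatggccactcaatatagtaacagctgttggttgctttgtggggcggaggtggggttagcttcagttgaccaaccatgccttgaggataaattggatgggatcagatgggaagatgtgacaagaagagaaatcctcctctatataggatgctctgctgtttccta
ATF3, second start: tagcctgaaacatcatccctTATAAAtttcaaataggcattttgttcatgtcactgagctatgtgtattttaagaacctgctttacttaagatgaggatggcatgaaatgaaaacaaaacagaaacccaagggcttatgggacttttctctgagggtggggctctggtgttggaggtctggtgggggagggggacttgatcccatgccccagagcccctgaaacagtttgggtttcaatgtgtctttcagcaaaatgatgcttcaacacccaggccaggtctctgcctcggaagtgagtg

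EGR1 held 2 CArG boxes, which began at positions -105 and -83 from its start. A CArG box was present in 1.29% of the 35116 promoters in the table. JUNB held a TATA box at position -31, while 11.5% of all promoters held the letters TATAAA anywhere in the window. The second start of ATF3 held these letters only at -230, far from their positions in JUNB, FOS and FOSB. Whether they act as a TATA box there was not tested. The first start of ATF3 held none of the 5 motifs in this window. Of the members not printed, FOS held a TATA box at -33 and FOSB one at -30, FOSL2 an AP-1 site at 5 (4.95% of all promoters) and JUND a CRE at -200 (1.85% of all promoters). The window of JUN held none, and no window of a member held the EGR site, which 0.795% of promoters held. No match overlapped another. The table matched 8 of the 10 genes, and FOSL1 and IER3 were not searched.

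Gene positions were those of the deposited tables (hg38). FOS (ENSG00000170345) lay on chromosome 14 at 75278774 to 75282230, FOSB (ENSG00000125740) on chromosome 19 at 45467995 to 45475179, FOSL1 (ENSG00000175592) on chromosome 11 at 65892049 to 65900573 and FOSL2 (ENSG00000075426) on chromosome 2 at 28392448 to 28417312. JUN (ENSG00000177606) lay on chromosome 1 at 58780788 to 58784327, JUNB (ENSG00000171223) on chromosome 19 at 12791496 to 12793315 and JUND (ENSG00000130522) on chromosome 19 at 18279760 to 18281622. ATF3 (ENSG00000162772) lay on chromosome 1 at 212565334 to 212620777, EGR1 (ENSG00000120738) on chromosome 5 at 138465490 to 138469315 and IER3 (ENSG00000137331) on chromosome 6 at 30743199 to 30744554. In GENCODE release 44, the main transcripts of JUN, JUNB and JUND had 1 exon, those of EGR1 and IER3 had 2, and those of FOS, FOSB, FOSL1, FOSL2 and ATF3 had 4. Introns that open with the U12-type letters GTATCCTT or ATATCCTT (minimum length 60 bases) were found in 631 of 39107 genes with introns and in 0 of the 10 genes. FOSB overlapped ERCC1 and JUNB overlapped HOOK2 on the opposite strand, FOSL2 overlapped FLJ31356 and RP11-373D23.2, and IER3 overlapped XXbac-BPG252P9.10. The sources do not state whether counting used strand, so the values of these 4 genes could share reads with their neighbours.

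TPM is a transcript level scaled by gene length and by the total of the library, so levels of different genes can be set side by side within a library. U11, summed over its table entries, was at 21.4 and 23.8 TPM in the knockout controls and at 31.6 and 37.4 TPM under the knockout label, which goes against that label (exact permutation test, two-sided, p = 0.333, the smallest that 2 libraries against 2 allow). By real-time PCR the paper reports U11 significantly lower in its knockout line than in wild-type T24 cells. Directions drawn from these libraries therefore rest on the label and that PCR, not on U11 TPM. For the overexpression comparison, U11 was at 0.033 and 0.62 TPM in the controls, 0.18 and 0.41 TPM under line label 79, 3.98 and 3.72 TPM under 86 and 61.9 and 53.6 TPM under 87 (p = 0.286 by the same exact test, where 0.0714 is the smallest). Under line label 79 U11 lay within the range of the controls, so U11 TPM does not bear out the overexpression label in those 2 libraries. The paper reports U11 significantly higher in its overexpressing line by real-time PCR. The labels name polyA RNA, and how well these libraries captured U11 was not tested. Aligned bases were estimated from the upper limit of coverage (mean depth per base) over FPKM (fragments scaled by length and depth). This estimate ranged from 9.07 to 15.3 gigabases per library. Summed TPM of the HIST histone genes was 27662 to 34279 in the libraries of the knockout comparison but 103 to 180 in those of the overexpression comparison, so changes were tested within a comparison. KRT7, KRT8, KRT18, KRT19, VIM and CD44 were above 1 TPM in all 12 libraries. EPCAM, another epithelial marker of the list, was at 0.090 to 1.23 TPM in the knockout comparison and reached 1 TPM in 8 of the 12 libraries. The uroplakins UPK1A, UPK1B, UPK2 and UPK3A, which define the differentiated urothelium, were under 1 TPM in all. Of the endothelial markers PECAM1, CDH5 and VWF, CDH5 alone exceeded 1 TPM, and their sum was 4.82 to 4.94 TPM in the knockout controls, 0.10 to 0.13 TPM under the knockout label, 3.16 to 3.53 TPM in the overexpression controls and 4.30 to 34.2 TPM under the overexpression label. The fibroblast markers PDGFRB, DCN and LUM summed to at most 1.76 TPM in any library. The part of these markers in the results was not tested. No source says that replicates came from separate cultures, so P values measure only the spread between these libraries, which may be technical. In bulk RNA, fewer cells that express a gene and less RNA per cell cannot be told apart.

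In the knockout controls the order of mean levels was IER3, FOSL1, JUN, FOSL2, JUNB, JUND, ATF3, EGR1, FOS and FOSB. IER3 led at 79.4 ± 5.43 TPM (SD, n = 2), and FOSL1 followed at 72.9 ± 2.51 TPM. The lowest 3, EGR1, FOS and FOSB, had means from 0.819 to 0.893 TPM, and neighbours in that trio overlapped, whereas all other neighbours did not. In the libraries labelled U11 knockout, JUNB stood above FOSL2 in the order, although their ranges overlapped there (39.0 to 39.9 TPM against 36.1 to 39.1 TPM). FOSL1 and JUN also overlapped under that label, as did ATF3 with EGR1 and EGR1 with FOS. FOSL1 led in the overexpression controls at 349.7 ± 28.2 TPM (SD, n = 2), followed by JUN at 125 ± 3.86 TPM. IER3 came next there at 87.6 ± 3.71 TPM, then FOSL2 at 75.9 ± 3.22 TPM. JUNB had nearly the same mean TPM in both sets of controls, 15.7 and 15.8, whereas FOSL1 had 72.9 and 349.7 TPM. The 10 genes with the highest TPM took 45.5% to 49.6% of a library in the knockout comparison. In the overexpression comparison they took 7.06% to 7.56%. All other genes share what remains, so equal TPM of JUNB in both sets of controls does not show equal levels. A code at the start of the sample names, called the run code here, also separates the comparisons. Its meaning is not given in the sources used here. Run code, library make-up and comparison therefore cannot be told apart for the difference in FOSL1.

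**Figure D1:**
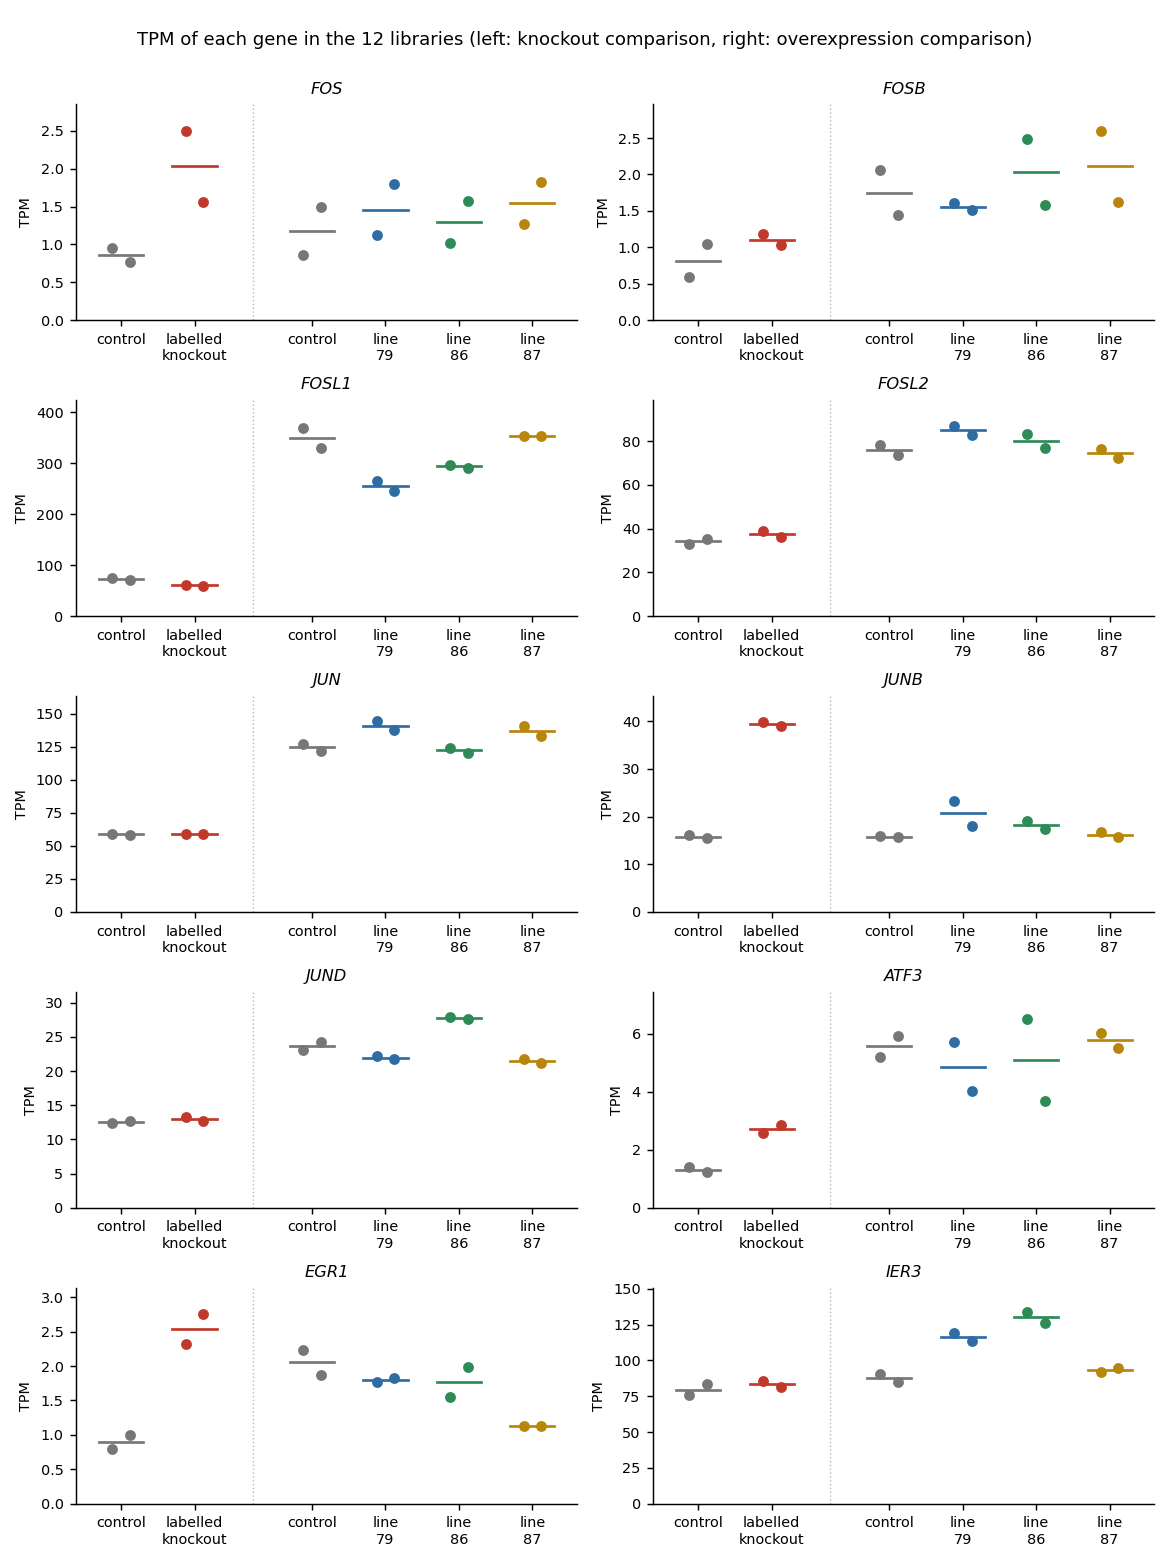
TPM (linear axes from 0) of each of the 10 genes in every library, with points for libraries, horizontal bars for group means, and a dotted line between the knockout and the overexpression comparison. JUNB stands at 39.0 and 39.9 TPM under the knockout label and at 15.4 and 16.1 TPM in its controls, while JUN lies between 57.9 and 59.3 TPM in all 4 of those libraries.

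In the knockout comparison, JUNB, EGR1, ATF3 and FOS were up-regulated under the knockout label, and none of the 10 genes was down-regulated. A gene was called at a fold change of 1.5 or more on the log2(TPM + 1) scale with an unadjusted P in limma under 0.05, and by the same rule 8.61% of 14356 genes tested were up-regulated and 3.15% down-regulated. After Benjamini-Hochberg adjustment over all genes tested, JUNB, EGR1 and ATF3 were still called, beside 4.78% of all genes. FOS and EGR1 were below 1 TPM in both controls and entered the test only through the libraries under the knockout label, so their being higher was built into the filter, and the number of members called is given as a description.

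JUNB, a JUN protein often described as a brake on JUN-driven growth, had the largest log2 fold change of the 10 genes on this scale, although EGR1 passed it with 0.1 TPM added in place of 1 (1.41 against 1.32). It stood at 16.1 and 15.4 TPM in the controls, compared with 39.9 and 39.0 TPM under the knockout label. Both libraries under the label lay above both controls, and the ratio of the means was 2.51. The log2 fold change was 1.27 (standard error 0.096, limma adjusted P = 0.00945), at the 98.98th percentile of the genes tested. HOOK2, on the other strand of the JUNB locus, had means of 4.31 TPM under the label and 5.50 TPM in the controls (log2 fold change -0.29, limma adjusted P = 0.247). The call for JUNB held under all 15 alternatives tried, but its limma adjusted P was 0.138 without replicate 1 of the knockout label, 0.115 without replicate 2 and 0.0581 with no filter.

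EGR1, an immediate early factor driven by serum response factor, stood at 0.79 and 0.99 TPM in the controls, compared with 2.32 and 2.75 TPM under the knockout label. The groups did not overlap, which the filter had fixed in advance, and the ratio of the means was 2.84. The log2 fold change was 0.90 (standard error 0.14, limma adjusted P = 0.0339), which understates the ratio because 1 TPM was added to each value. The mean read coverage behind EGR1 was 8.19 to 10.4 in the controls and 23.5 to 29.4 under the label. With no filter the limma adjusted P of EGR1 was 0.136, without replicate 1 of the controls it was 0.0581, and with the replicate number as a block it was 0.0932. Without either library under the label it was not tested.

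ATF3 stood at 1.39 and 1.24 TPM in the controls, compared with 2.59 and 2.86 TPM under the knockout label. Each library under the label was above each control, with a ratio of means of 2.07 and a log2 fold change of 0.69 (standard error 0.13, limma adjusted P = 0.0457). That adjusted P was 0.156 with no filter, 0.138 with the replicate number as a block and 0.0648 with median ratio scaling. It was 0.0606 in the fit of all 12 libraries, 0.0529 without histone and the 10 highest genes and 0.0504 with 0.1 TPM added. It stayed lower with at least 1 TPM in every library (0.0383), without trend (0.0399) and with FPKM (0.0489). Coverage was only 1.84 to 2.93 in the controls and 3.61 to 4.73 under the label. ATF3 was not called with FPKM or with coverage in place of TPM, where the log2 fold change from coverage was 0.24. For that value coverage was scaled to its total in the library, and 1 was then added. That addition shrinks the change of genes with such low coverage, so 0.24 understates the change in coverage. With any 1 of the 4 libraries left out, its limma adjusted P lay between 0.0686 and 0.203.

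FOS, the founding partner of JUN in AP-1, stood at 0.95 and 0.77 TPM in the controls, compared with 2.50 and 1.56 TPM under the knockout label. The filter fixed in advance that the groups would not overlap. The libraries under the label differed from each other by more than the controls did. The log2 fold change was 0.69 (standard error 0.19), with an unadjusted P of 0.017 and an adjusted P of 0.0975 in limma. FOS was not called with FPKM or coverage, where 1 was likewise added to each value, which understates the change of low genes.

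FOSL1, the FOS family gene with the highest TPM in these libraries, was lower under the knockout label without reaching the fold change threshold. It stood at 74.7 and 71.2 TPM in the controls, compared with 61.7 and 58.5 TPM under the label. The log2 fold change was -0.28 (standard error 0.089, unadjusted P = 0.0276, adjusted P = 0.125 in limma), and both libraries under the label were below both controls. FOSL2, a related protein, was at 33.1 and 35.2 TPM in the controls, compared with 39.1 and 36.1 TPM under the label (log2 fold change 0.13, standard error 0.10, limma adjusted P = 0.419).

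JUN, the prototype of its family, was at 59.3 and 57.9 TPM in the controls, compared with 59.0 and 58.9 TPM under the label. Its log2 fold change was 0.0083 (standard error 0.084, limma adjusted P = 0.958), and both libraries under the label fell between the controls. JUND, which is usually present without stimulation, was at 12.5 and 12.7 TPM in the controls, compared with 13.2 and 12.8 TPM under the label. FOSB, an early FOS protein, was at 0.59 and 1.05 TPM in the controls, compared with 1.18 and 1.03 TPM under the label. IER3 was at 75.6 and 83.3 TPM in the controls, compared with 85.4 and 81.3 TPM under the label. The limma adjusted P was 0.812 for JUND, 0.433 for FOSB and 0.661 for IER3, and a P that misses the threshold does not show equal levels. ERCC1, opposite FOSB, was far above it with means of 61.2 TPM under the label and 46.3 TPM in the controls. FOSL2, JUNB, JUND and ATF3 did not overlap with the controls and were higher, as were 39.9% of the genes tested. FOS and EGR1 did so too, but for them the filter fixed this in advance. FOSL1 was lower without overlap, as were 20.4% of the genes.

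The make-up of the JUN family differed between the libraries labelled U11 knockout and their controls. JUNB made up 18.1% ± 0.26 (SD, n = 2) of the summed JUN, JUNB and JUND TPM in the controls and 35.4% ± 0.21 under the label. JUN made up 67.4% ± 0.11 in the controls and 52.9% ± 0.39 under the label. The family summed to between 86.0 and 87.8 TPM in the controls and between 110.7 and 112 TPM under the label. In the FOS family, FOSL1 made up 67.1% ± 1.78 in the controls and 59.6% ± 0.78 under the label, and FOSL2 made up 31.4% ± 1.59 and 37.3% ± 0.17. FOS and FOSB were minor parts, at most 2.40% and 1.13% of the family TPM in any library under the label. For the overexpression comparison, JUNB made up 9.62% ± 0.14 of the JUN family in the controls and 10.4% ± 1.17 (SD, n = 6) under the label, and FOSL1 made up 81.6% ± 0.60 and 78.1% ± 3.40 of the FOS family. No test was run on these shares.

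**Figure D2:**
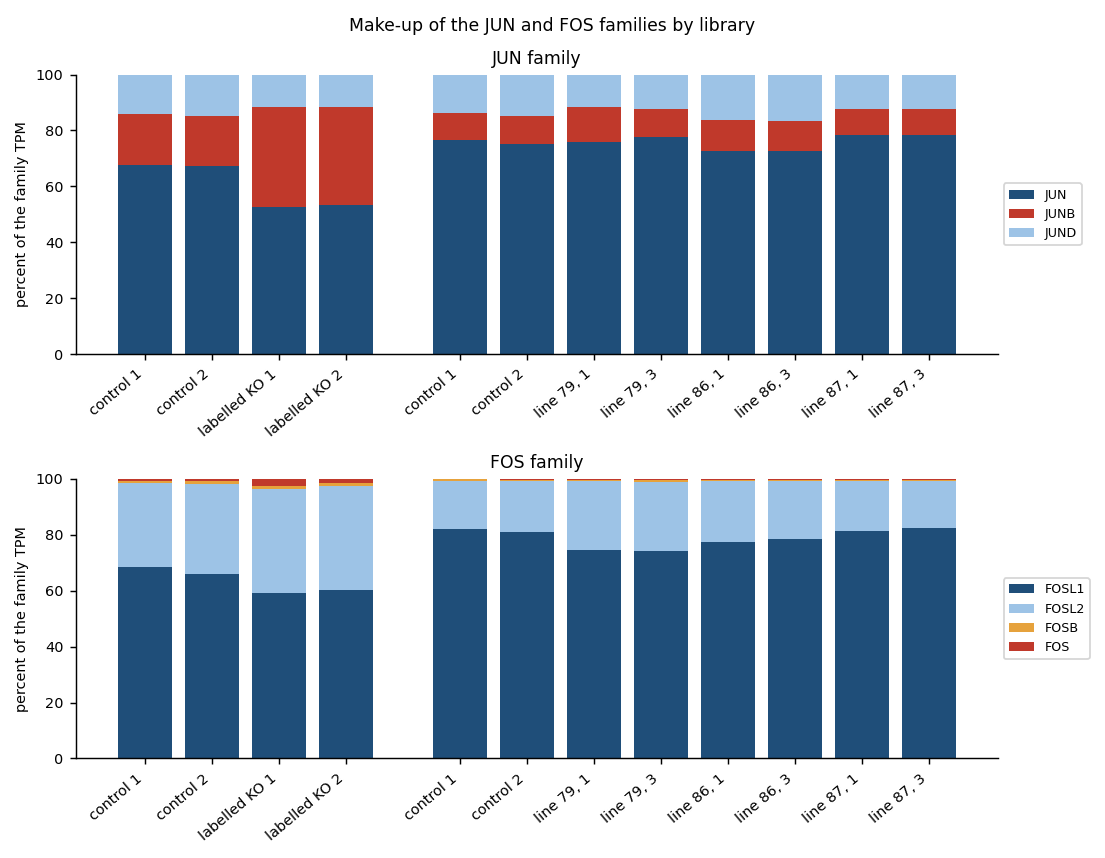
Stacked bars from 0 to 100 percent of the summed TPM of the JUN family (top) and of the FOS family (bottom) in each library, knockout comparison on the left (labelled KO: labelled U11 knockout) and overexpression comparison on the right. JUNB takes 35.3% and 35.6% of the JUN family under the knockout label and between 9.18% and 18.3% in the other 10 libraries.

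In the overexpression comparison, limma called none of the 10 genes, where 0.767% of the 15768 genes tested were up-regulated and 1.16% down-regulated, and IER3 alone had an unadjusted P under 0.05 (2.82% of all genes higher, 3.18% lower). IER3 was at 90.2 and 85.0 TPM in the controls, compared with 92.0 (lowest), 116 (median) and 134 TPM (highest) in the 6 overexpression libraries. All 6 lay above both controls, as in 4.62% of the genes tested, with a log2 fold change of 0.35 (standard error 0.15, unadjusted P = 0.0421, adjusted P = 0.824 in limma). In a limma fit of all 12 libraries together its adjusted P was 0.0177. Each line label was its own group in that fit, so the spread between lines did not enter the error. With the mean of each line label as the unit, limma gave an unadjusted P of 0.0597 and an adjusted P of 0.928. The mean difference from the control of the same run code was 0.33 for one code and 0.38 for the other on the log2 scale. In each, 3 of 3 lines were higher.

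EGR1 was at 2.24 and 1.87 TPM in these controls and at 1.13 (lowest), 1.66 (median) and 1.98 TPM (highest) under the overexpression label (log2 fold change -0.26, standard error 0.18, limma adjusted P = 0.91). It lay below both controls in 5 of 6 libraries. JUNB was at 15.8 and 15.7 TPM in the controls, compared with 15.6, 17.7 and 23.3 TPM (lowest, median, highest) under the label (log2 fold change 0.20, standard error 0.14, limma adjusted P = 0.912). FOSL1 was at 369.7 and 329.8 TPM in the controls, compared with 246, 294 and 353 TPM (lowest, median, highest) under the label (log2 fold change -0.23, standard error 0.15, limma adjusted P = 0.903). In all 3 genes the overexpression libraries overlapped with the controls.

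ATF3 was at 5.21 and 5.91 TPM in the controls, with a range from 3.69 to 6.49 TPM under the label. Its mean difference from the control of the same run code was 0.19 for one code and -0.37 for the other on the log2 scale. FOS ranged from 1.02 to 1.83 TPM and FOSB from 1.51 to 2.59 TPM under the label, with controls at 0.87 and 1.49 TPM for FOS and at 2.06 and 1.44 TPM for FOSB. In both genes the libraries differed by run code. FOS was higher and FOSB lower under R18019 than under R17018, for the controls and for each of the 3 line labels. JUN ranged from 120.5 to 144 TPM against 127 and 122 TPM in the controls, JUND from 21.2 to 27.9 TPM against 23.1 and 24.2 TPM, and FOSL2 from 72.2 to 87.0 TPM against 78.2 and 73.6 TPM. The log2 fold changes of these 6 genes lay between -0.091 and 0.16, with limma adjusted P values from 0.924 to 0.998.

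**Figure D3:**
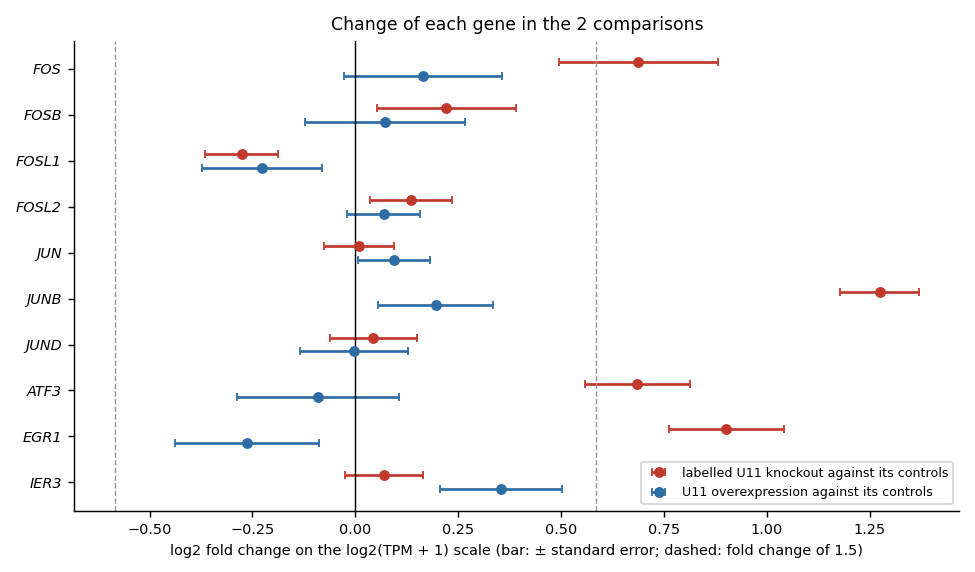
Log2 fold change of each gene on the log2(TPM + 1) scale with its standard error, for the libraries labelled U11 knockout (red) and U11 overexpression (blue) against their own controls, with dashed lines at a fold change of 1.5. JUNB (1.27), EGR1 (0.90), FOS and ATF3 (0.69 each) lie past the dashed line in the knockout comparison, and no gene does in the overexpression comparison.

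The changes in both comparisons, which share no library, were set against each other in a single fit of all 12 libraries. Each line label was its own group there too, so the spread between lines did not enter the error. Library make-up and run code also differ between the comparisons, and cancel only where they are additive on the log scale. The added 1 TPM shrinks the 2 changes of EGR1 unequally, since its controls averaged 0.89 TPM in the knockout comparison and 2.05 TPM in the overexpression comparison. The difference (knockout label minus overexpression label) was 1.08 on the log2 scale for JUNB (standard error 0.15, limma adjusted P = 0.00254) and 1.16 for EGR1 (standard error 0.17, limma adjusted P = 0.00327). These were 2 of the 10 genes, and 11.9% of 16404 genes tested passed the same threshold. ATF3 had a difference of 0.78 (limma adjusted P = 0.113), FOS 0.52 (limma adjusted P = 0.304) and IER3 -0.28 (limma adjusted P = 0.0981), none past the threshold. After median ratio scaling IER3 passed it too.

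The line labels differed in FOSL1, JUND and IER3. A moderated F test in limma over line labels 79, 86 and 87 gave adjusted P values of 0.0186 for FOSL1, 0.028 for JUND and 0.0126 for IER3. These were 3 of the 10 genes, where 16% of the genes tested passed. FOSL1 stood at 264 and 246 TPM under 79, at 297 and 291 TPM under 86 and at 353.2 and 353.0 TPM under 87. The line labels did not overlap, and 87 lay within the range of the controls. The contrast of 79 with 87 was -0.47 on the log2 scale (standard error 0.074, limma adjusted P = 0.012).

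JUND stood at 22.2 and 21.8 TPM under 79, at 27.9 and 27.6 TPM under 86 and at 21.7 and 21.2 TPM under 87. Line label 86 was above the others and above both controls, with contrasts of -0.32 on the log2 scale for 79 minus 86 (limma adjusted P = 0.0297) and 0.36 for 86 minus 87 (limma adjusted P = 0.0355). IER3 stood at 119 and 114 TPM under 79, at 134 and 126 TPM under 86 and at 92.0 and 94.6 TPM under 87. It was higher than in 87 by 0.31 in 79 (limma adjusted P = 0.0342) and by 0.47 in 86 (limma adjusted P = 0.013). The F test passed for none of the members without either library of line label 87, and for IER3 alone without either library of line label 79. JUND passed it with all 8 libraries but not with any one of them left out. With the run code as a block 4 members passed, these 3 and JUN.

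Against the controls, which the 3 contrasts share, no member passed both thresholds in any line, where 7.95% (79), 3.6% (86) and 5.13% (87) of genes were called in either direction. At an unadjusted P under 0.05 in limma alone, 4 members passed under 79 (24.1% of all genes), 3 under 86 (13.5%) and 1 under 87 (17.8%). At an adjusted P under 0.05 without the fold change threshold, 2 members passed under 79 (9.91% of all genes), 1 under 86 (1.96%) and 0 under 87 (3.68%). FOSL1 was lower under 79 (log2 fold change -0.45, standard error 0.074, limma adjusted P = 0.0151). IER3 was higher under 79 (0.40, standard error 0.068, limma adjusted P = 0.0163) and under 86 (0.56, standard error 0.068, limma adjusted P = 0.0162). Under 87, where U11 was highest, the value farthest from 0 belonged to EGR1, at 1.13 TPM in both libraries (-0.52, standard error 0.14, unadjusted P = 0.00898, adjusted P = 0.117 in limma). EGR1 stood at 1.77 and 1.82 TPM under 79 and at 1.55 and 1.98 TPM under 86, and the F test between line labels did not call it. JUNB under 79 was at 23.3 and 18.1 TPM (0.36, standard error 0.13, limma adjusted P = 0.15).

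**Figure D4:**
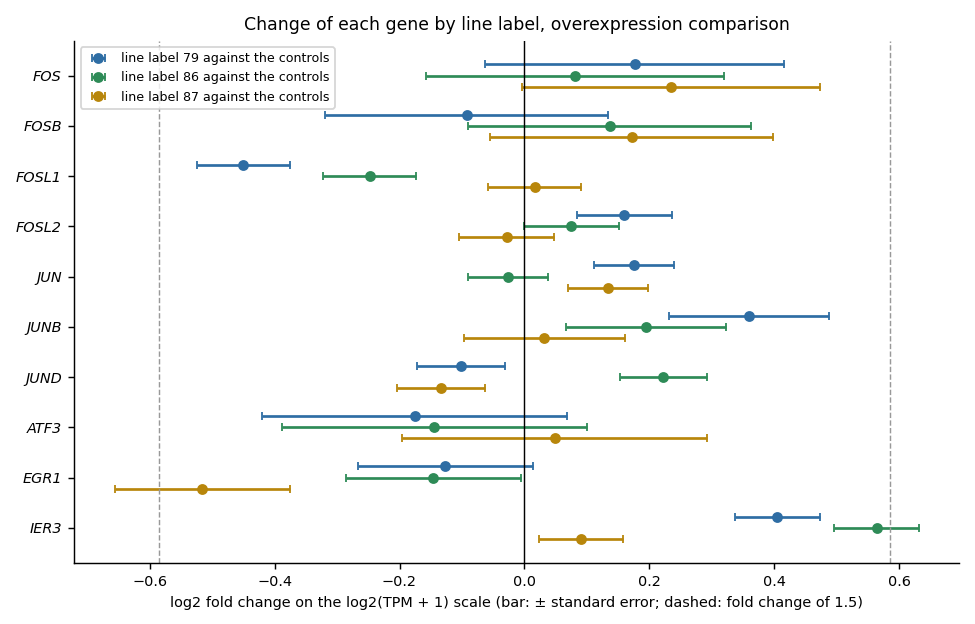
Log2 fold change of each gene on the log2(TPM + 1) scale with its standard error for line labels 79 (blue), 86 (green) and 87 (gold) against the same 2 controls, with dashed lines at a fold change of 1.5. FOSL1 (-0.45 under 79) and IER3 (0.56 under 86) lie far from 0 with small errors, and the wide bars of FOS, FOSB and ATF3 cross 0.

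A list of 40 other AP-1 and early response genes was followed beside the members. In the knockout comparison 31 of them were tested, 12 were up-regulated (8.61% of all genes), 10 also after adjustment (4.78% of all genes), and none was down-regulated (3.15% of all genes). At an unadjusted P under 0.05 in limma alone, 21 were higher (20.6% of all genes) and 0 lower (9.53% of all genes). Their median log2 fold change was 0.49 against 0.108 over all genes tested. The 4 largest adjusted changes belonged to CTGF, a matrix-associated growth regulator, KLF4, an early zinc finger factor, SGK1, a serum-induced kinase, and BATF3, a partner of JUN proteins. CTGF had means of 445 ± 42.9 TPM (SD, n = 2) under the knockout label and 140.4 ± 4.69 TPM in the controls (log2 fold change 1.66, limma adjusted P = 0.00644). KLF4 rose by 1.63 on the log2 scale (limma adjusted P = 0.0141), SGK1 by 1.30 (limma adjusted P = 0.0106) and BATF3 by 1.07 (limma adjusted P = 0.0207). BATF3 averaged 0.751 TPM in the controls and entered the test only through the libraries under the label, so its being higher was built into the filter. Under the overexpression label 34 were tested and limma called none. At an unadjusted P under 0.05, 1 was lower (PLK2, named after its value was seen) and 0 were higher, beside 3.18% and 2.82% of all genes. The median was 0.0042 beside -0.017 over all genes.

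Of 29 upstream and feedback genes, 27 were tested in the knockout comparison. DUSP10, a phosphatase that acts on stress kinases, was up-regulated by 1.22 on the log2 scale (limma adjusted P = 0.0177) and SPRED2, an inhibitor of the RAS pathway, by 0.92 (limma adjusted P = 0.032). These 2 of 27 compare with 8.61% of all genes, and none of the 27 was down-regulated. limma gave 11 higher and 2 lower with an unadjusted P under 0.05 (20.6% and 9.53% of all genes), and the median of the list was 0.17 beside 0.108 over all genes. Under the overexpression label limma called none of the 27. At an unadjusted P under 0.05, 3 were higher (DUSP6, RPS6KA3 and SPRY4, named after their values were seen) and 0 lower, beside 2.82% and 3.18% of all genes.

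Of 26 textbook AP-1 targets, 20 could be tested under the knockout label, with 9 up-regulated and 3 down-regulated, all 12 also after adjustment (4.78% of all genes up, 2.08% down). Their median was 0.49. TIMP1, an inhibitor of matrix proteases, rose by 1.91 on the log2 scale (limma adjusted P = 0.00276), PLAUR, the urokinase receptor, by 0.87 (limma adjusted P = 0.0152) and EZR, a membrane linker, by 0.84 (limma adjusted P = 0.0151). CXCL8, a chemokine, fell by 1.79 (limma adjusted P = 0.0127), PLAU, urokinase itself, fell by 1.21 (limma adjusted P = 0.0113) and HBEGF, an EGF receptor ligand, fell by 1.01 (limma adjusted P = 0.018). In the overexpression comparison 22 were tested, and 4 were up-regulated (CXCL8, HMOX1, MMP3 and PTGS2), beside 0.767% of all genes. None was down-regulated (1.16% of all genes), and 0 fell at an unadjusted P under 0.05 in limma (3.18% of all genes). All 4 also differed between line labels in the limma F test (adjusted P 0.0294, 0.00315, 0.0485 and 0.00337 in that order), as did 16% of all genes. MMP3 averaged 0.055 TPM in the controls and entered the test only through overexpression libraries, so its being higher was likewise built in. CXCL8 alone was called after adjustment, as were 0.0507% of all genes (log2 fold change 1.43, limma adjusted P = 0.0202).

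**Figure D5:**
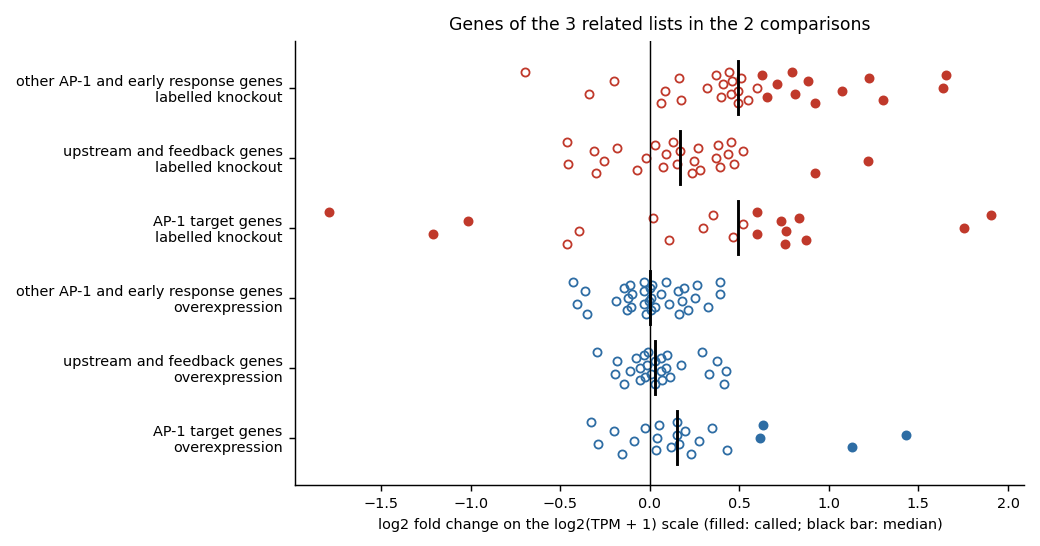
Log2 fold change on the log2(TPM + 1) scale of every tested gene of the 3 lists in the knockout comparison (red) and the overexpression comparison (blue), with filled points for genes called and black bars for medians (the vertical spread within a row carries no value). The early response genes sit mostly right of 0 under the knockout label (28 of 31) and on both sides of 0 under the overexpression label (18 of 34 right of 0).

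The genes whose pattern was most like that of each member were found by Pearson's r over the 12 libraries, after removing the mean of each comparison, among 9632 genes with at least 5 TPM on average in both comparisons. These r values describe points that share libraries and depth. Differences between a label and its controls were not removed, so for genes called in the same libraries r in part restates those calls. For JUNB they included METRNL (0.967) and BTN2A1 (0.964), for EGR1 PXMP2 (0.956), CREG1 (0.952) and GOLM1 (0.951), and for ATF3 ATG4D (0.939), RWDD1 (0.895) and SIRT6 (0.894). FOS was most like KANSL1 (0.953), FAM20B (0.930) and TULP4 (0.928), and FOSB like SLC9A7 (0.886), METTL6 (0.883) and SEPT10 (0.882). FOSL1 was most like APEX2 (0.935), PSMB9 (0.933) and FJX1 (0.931), and FOSL2 like PPARD (0.960), CPOX (0.939) and PRSS3 (0.930). JUN was most like CDCA4 (0.965), CCDC85C (0.958) and SOX7 (0.932), JUND like RP11-12G12.7 (0.955), PARP16 (0.954) and LIF (0.946), and IER3 like LHX1 (0.936), SERPINB5 (0.935) and MRFAP1 (0.922). Among the members themselves, the values of r farthest from 0 were 0.79 for JUNB with EGR1, -0.78 for JUN with JUND, -0.73 for FOSL1 with FOSL2 and 0.70 for JUNB with ATF3.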

How the data were processed

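RNA from T24 cells was sequenced by the study, with alignment to hg38 by Hisat2 and quantification of each library by Stringtie. The labels name polyA RNA, whereas the methods name ribosomal RNA depletion. Each deposited table lists TPM, FPKM (fragments scaled by length and depth) and coverage (mean depth per base) by gene. No read counts were used here, so the error of a value rests on how far libraries of a group differ. limma 3.58.1 in R 4.3.3 was run with trend on log2(TPM + 1), for genes reaching 1 TPM in 2 libraries of a fit. Fold changes are on that scale and understate the change of low genes. The test was first tried on simulated data. The study's thresholds (unadjusted P under 0.05, fold change of at least 1.5) defined calls, and adjustment ran over all genes tested. Groups, replicate numbers, line labels and run codes came from the labels. The 10 members and the 3 lists were chosen with earlier results of these data known. All members are named, and of each list the called genes with adjusted P under 0.05, at most the 4 largest per direction, except that some items are not reported here. Alternatives were pseudocount, unit, scaling, filter, trend, blocks (replicate number, run code), joint fit, line means and libraries left out. Figures were drawn with matplotlib 3.10.9, and scipy 1.17.1 gave exact tests.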

Additional observations from a re-analysis of the deposited data

Results flagged for a closer look

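The level of FOSL1, JUND and IER3 differed between line labels 79, 86 and 87 under the overexpression label, with limma adjusted P values of 0.0186, 0.028 and 0.0126 in the F test. For JUNB and EGR1 the change under the knockout label differed from that under the overexpression label, by 1.08 and 1.16 on the log2 scale with limma adjusted P values of 0.00254 and 0.00327. Library make-up and run code, which also differ between the comparisons, cancel there only where they are additive on the log scale. No single library of the 6 under the overexpression label was set apart by Dixon's test in the 11 values examined (the 10 genes and U11). That test looks at 1 library at a time, and U11 reached 61.9 and 53.6 TPM in both libraries under line label 87 but only 0.18 to 3.98 TPM in the other 4.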

How the results depend on the processing

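The number of members called under the knockout label was 2 in place of 4 with FPKM (JUNB and EGR1), with at least 1 TPM in every library (JUNB and ATF3) and with coverage (JUNB and EGR1, chosen after seeing the data), and ranged from 2 to 4 with a library left out. FOS and EGR1 left the test by construction under the stricter filter and without either library labelled U11 knockout. Numbers 1 and 2 were shared only as numbers (correlation of deviations of same-numbered libraries 0.0244), and with the replicate block 4 members were called. Median ratio scaling gave 769 up-regulated and 778 down-regulated genes over all genes, in place of 1236 and 452, and moved the median of all genes from 0.108 to -0.019. No member was called under the overexpression label in any alternative. The number of members that differed between line labels was 4 with the run code as a block (JUN added). It ranged from 0 to 2 with a library left out, an alternative also chosen after seeing the data. Signs turned for 6 genes. Under the knockout label these were JUN (-0.091 with FPKM, -0.14 with median ratio scaling, -0.064 without histone and the 10 highest genes, -0.0082 to 0.025 with a library left out), JUND (-0.050, -0.095 and -0.025 in the first 3 of these settings), IER3 (-0.031, -0.078 and -0.0020 likewise) and FOSL2 (-0.011 with median ratio scaling). Under the overexpression label they were JUND (0.013 with median ratio scaling, 0.044 without line label 79, 0.060 without 87, -0.051 to 0.029 with a library left out), FOS (-0.044 to 0.37 with a library left out) and FOSB (-0.091 to 0.23 likewise). The cause was not tested.

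The lists were recomputed under the same settings, a choice made after seeing the data. With a library of the knockout comparison left out, early response genes called down ranged from 0 to 1 and upstream genes called down from 0 to 1. Upstream genes called there were 1 up with coverage and 1 down with median ratio scaling. Under the overexpression label, upstream genes called up were 1 without line label 79 and 0 to 1 with a library left out. AP-1 targets called up there were 1 after adjustment, 2 with line means and without line label 86, and 1 to 4 with a library left out, and 1 (LIF) was called down without line label 86. Read depth limits ATF3, FOS and FOSB, whose coverage was below 10 in every library.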
